A study of Mus musculus with 12 samples.

Results

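HCN channels are the pacemaker channels of excitable cells, and 3 of their subunit genes, Hcn2, Hcn3 and Hcn4, were followed here in mouse dorsal root ganglia (DRG), the clusters of sensory neuron cell bodies beside the spinal cord. The genes were picked out of the table by symbol, with earlier results of these data known. They are 3 of 24490 deposited rows, of which 770 carry a gene name that occurs more than once. All tissue came from adult male C57Bl/6 mice, and RNA was sequenced from 12 samples in 3 groups of 4. Intact DRG were snap frozen whole, with 1 mouse per sample. Dissociated, unsorted DRG were enzymatically dispersed, triturated and filtered before freezing, with 2 mice per sample. MACS-sorted samples, with 8 mice per sample, were dissociated in the same way and then passed over a magnetic column that held back cells tagged by an antibody cocktail against non-neuronal cells. The unsorted samples therefore shared the dissociation with the MACS-sorted samples, and the intact samples had neither step. The labels name no transgene and no treatment of the animals. Each sample was material from a single mouse in the intact group and from a pool of mice in the others. The p-values below therefore describe a spread between single mice for intact DRG and between pools for the other groups. Whether samples of different groups shared mice is not stated in the sources used here.

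HCN subunits assemble as tetramers into cation channels that open when the membrane is hyperpolarised and carry an inward current, Ih, that pulls the membrane back towards the firing threshold. Cyclic AMP (cAMP) binds to a domain in the intracellular tail and makes opening easier, strongly in channels of HCN2 and HCN4 and little if at all in channels of HCN3. In sensory ganglia Ih is largest in large-diameter neurons, while HCN2 in small-diameter, pain-sensing neurons (nociceptors) has been tied to firing under inflammation, when prostaglandins and other mediators raise cAMP. HCN4 is best known as the main subunit of the sinoatrial node of the heart.

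The coordinates are those of mm10. Hcn2 lies on the plus strand of chromosome 10 from 79716634 to 79736108, Hcn3 on the minus strand of chromosome 3 from 89146775 to 89160157 and Hcn4 on the plus strand of chromosome 9 from 58823512 to 58860955. Each gene has 8 exons in its reference transcript of the GENCODE M21 annotation. The coding sequence is 2589 bases long in Hcn2, 2337 in Hcn3 and 3603 in Hcn4. The stretches printed below, each 75 bases of coding sequence, run through parts that define the family, and are shown because they show both what the channels share and how far reads can tell the genes apart. The first stretch runs through the pore, and the capitals mark the codons of the glycine-tyrosine-glycine signature of the selectivity filter. It begins at coding base 1168 in Hcn2, 898 in Hcn3 and 1402 in Hcn4.
Hcn2 pore: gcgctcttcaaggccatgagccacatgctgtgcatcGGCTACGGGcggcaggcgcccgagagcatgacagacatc
Hcn3 pore: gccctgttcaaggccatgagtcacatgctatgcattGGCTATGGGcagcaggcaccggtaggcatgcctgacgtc
Hcn4 pore: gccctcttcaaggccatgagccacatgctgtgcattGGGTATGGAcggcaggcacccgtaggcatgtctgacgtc

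The second stretch runs through the pocket that holds cAMP, and the capitals mark the codons of an arginine and a threonine that contact the nucleotide. It begins at coding base 1747 in Hcn2, 1477 in Hcn3 and 1981 in Hcn4.
Hcn2 pocket: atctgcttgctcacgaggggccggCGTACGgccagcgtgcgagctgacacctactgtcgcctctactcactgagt
Hcn3 pocket: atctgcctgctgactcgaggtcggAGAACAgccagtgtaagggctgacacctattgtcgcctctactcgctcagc
Hcn4 pocket: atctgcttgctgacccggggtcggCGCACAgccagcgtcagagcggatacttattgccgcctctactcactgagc

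All 3 genes carry both signatures, including Hcn3, although the codons differ. In the pore stretch, Hcn3 and Hcn4 shared 67 of 75 bases, Hcn2 and Hcn4 shared 63 and Hcn2 and Hcn3 shared 60. In the pocket stretch, Hcn2 and Hcn3 shared 58 of 75 bases, and Hcn4 shared 61 with each of them. Even so, no stretch of 100 bases, the length of a read, was common to 2 of these genes. None of the 3190 such stretches in the Hcn2 transcripts and none of the 6019 in the Hcn4 transcripts occurred in a transcript of any other annotated gene. Of the 4184 in the Hcn3 transcripts, 14.6% also occurred in Pklr, a pyruvate kinase gene on the opposite strand whose 3′ end overlaps that of Hcn3 in GENCODE M21.

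Expression was measured in FPKM, fragments scaled to transcript length and to the mapped fragments of the sample, so levels could be compared between genes per length. In every group the order was Hcn2, then Hcn3, then Hcn4, and no sample broke it. In intact DRG, Hcn2 was at 23.5 ± 3.37, Hcn3 at 8.08 ± 0.632 and Hcn4 at 2.37 ± 0.584 FPKM (SD, n = 4). In unsorted DRG the levels were 45.7 ± 5.69, 9.09 ± 0.408 and 2.43 ± 0.502 FPKM (SD, n = 4), and in MACS-sorted samples 20.1 ± 1.10, 16.1 ± 1.60 and 3.40 ± 0.354 FPKM (SD, n = 4). Hcn2 and Hcn3 came closest to each other after sorting, where the lowest Hcn2 level was 18.8 and the highest Hcn3 level 17.4 FPKM. Levels of different genes also depend on the transcript length the authors used. The deposited locus of Hcn4 covers 3798 of the 6118 bases of its reference transcript, that of Hcn3 covers 3262 of 4002 and that of Hcn2 covers all 3195. With fragments of 150 bases assumed, the samples held between 13600000 and 19300000 fragments. That corresponds to between 847 and 2706 fragments of Hcn2 per sample, between 386 and 927 of Hcn3 and between 90 and 206 of Hcn4, so that Hcn4 had the least precise values.

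**Figure D1:**
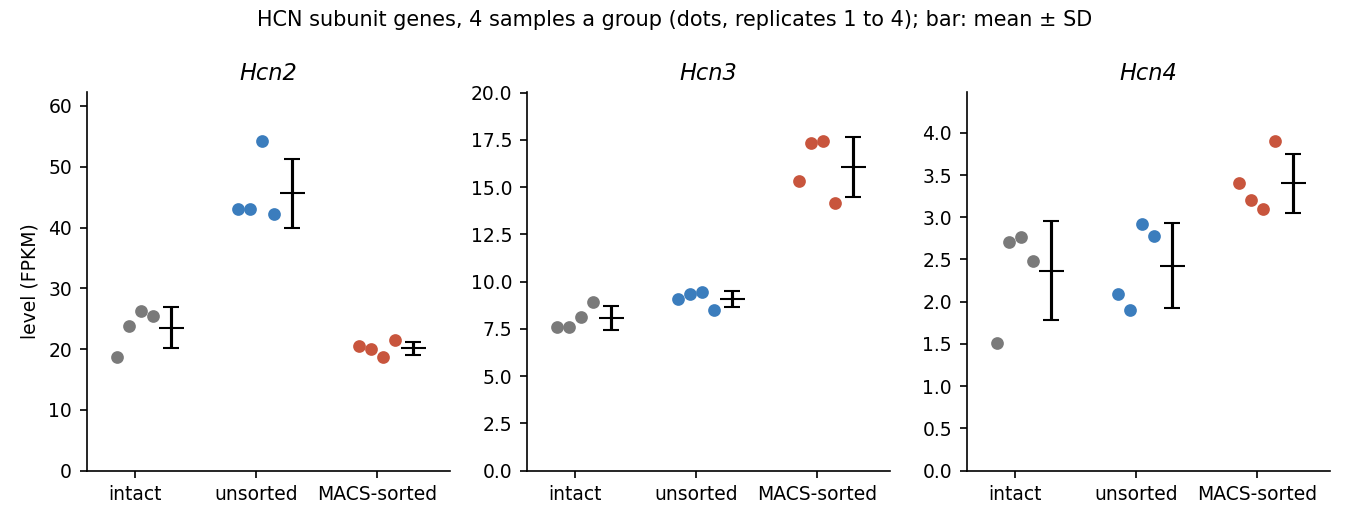
Expression of Hcn2, Hcn3 and Hcn4 in FPKM (vertical axes, a different scale for each gene) in intact, unsorted and MACS-sorted DRG, with 1 dot per sample and the mean ± SD of 4 samples as a bar. Hcn2 was at 42.3 FPKM or more in all unsorted samples and at 26.2 or less in all others, Hcn3 was at 14.1 FPKM or more in all MACS-sorted samples and at 9.44 or less in all others, and Hcn4 did not exceed 3.90 FPKM.

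The samples carried cells other than neurons to different degrees, and these values belong beside the results that follow. Of 8 pan-neuronal markers, Syt1 was called higher and Snap25 lower in MACS-sorted than in unsorted samples, with a median log2-fold change of 0.23. Of 6 satellite glia markers 5 were called lower, with a median of -6.24. Lower calls also went to 6 of 7 Schwann cell and 5 of 6 fibroblast markers. None of 6 endothelial markers was called. Of 3 pericyte and vascular smooth muscle markers tested, 1 was called higher and 1 lower. Of 11 markers of small-diameter nociceptors, 9 were higher after sorting, and of 8 markers of large-diameter neurons 7 were lower. No defining marker of these lists was at 0 in all samples of a group. Intact replicate 1 stood apart, with a summed expression of 6 skeletal muscle genes of 2819 FPKM against 14.8 to 63.4 FPKM in the other intact samples. Its log2 values differed from theirs with an SD of 0.70 to 0.72 over 12283 genes, against 0.352 to 0.377 among the other 3. Unsorted replicates 1 and 2 were the closest pair of any group, at 0.335, and pairs of MACS-sorted samples ranged from 0.493 to 0.804. Red blood cell genes accounted for 4.11% and 5.16% of all FPKM in MACS-sorted replicates 3 and 4 and at most 0.794% in any other sample.

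The first comparison asked which of the channel genes differ between MACS-sorted and unsorted preparations, which had gone through the same dissociation. Hcn2 fell and Hcn3 rose, by 2.27-fold and 1.77-fold. Unsorted replicates 1 to 4 had 43.0, 43.1, 54.2 and 42.3 FPKM of Hcn2, and sorted replicates 1 to 4 had 20.4, 19.9, 18.8 and 21.4 FPKM. Every MACS-sorted sample lay below every unsorted one, and the spread within the sorted group was narrow. The log2-fold change was -1.17 (standard error 0.09, 95% interval -1.37 to -0.97, adjusted p = 8.6e-06 by limma with Benjamini-Hochberg adjustment over 12038 genes). A gene was called where its adjusted p-value was under 0.05, its group means differed by more than 0.5 on the log2 scale and the higher mean exceeded 5 FPKM. By these criteria 12.5% of all genes tested were called lower in MACS-sorted samples, so Hcn2 was 1 of many genes that moved this way.

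Hcn3 ran the other way. Unsorted replicates 1 to 4 had 9.06, 9.33, 9.44 and 8.52 FPKM, whereas the sorted replicates had 15.3, 17.3, 17.4 and 14.1 FPKM. The groups did not overlap, and the lowest sorted sample was well above the highest unsorted one. The log2-fold change was 0.81 (standard error 0.09, 95% interval 0.62 to 1.00, adjusted p = 5.6e-05 by limma), and 8.15% of all genes tested were called higher. A criterion of 1 instead of 0.5 on the log2 scale ended this call, as it did the calls of Hcn3 against intact DRG and of Hcn2 between unsorted and intact DRG given below, but not the call of Hcn2 here.

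Hcn4 was at 2.09, 1.90, 2.92 and 2.78 FPKM in the unsorted and at 3.40, 3.20, 3.10 and 3.90 FPKM in the MACS-sorted replicates 1 to 4. The lowest sorted sample exceeded the highest unsorted sample by a small margin. The log2-fold change was 0.49 (standard error 0.16, 95% interval 0.12 to 0.85, adjusted p = 0.034 by limma). Hcn4 did not meet the calling criteria, since both its means were under 5 FPKM and its log2 ratio of means was 0.49. The adjusted p rose above the threshold under several alternative fits, up to 0.14 when samples were shifted to equal pan-neuronal marker levels, whereas quantile normalization gave a larger change of 0.83 (adjusted p = 0.0026 by limma).

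Large-diameter neuron markers moved with Hcn2. Their summed expression ranged from 1988 to 2380 FPKM in unsorted and from 385 to 556 FPKM in MACS-sorted samples. Nefh, the heavy neurofilament gene of large neurons, went from 666 ± 63.9 to 76.5 ± 20.2 FPKM (SD, n = 4), a log2-fold change of -3.15 (adjusted p = 1.2e-06 by limma), which is a larger change than that of Hcn2. Small-diameter nociceptor markers moved with Hcn3: Scn10a, the gene of the nociceptor sodium channel Nav1.8, went from 173 ± 12.1 to 284 ± 32.0 FPKM (SD, n = 4), a log2-fold change of 0.71 (adjusted p = 2.4e-04 by limma). The part of either marker set in the HCN results was not tested. These are bulk samples, in which fewer cells of a type and less RNA per cell cannot be told apart. Relative to the mean log2 level of the 8 pan-neuronal markers, Hcn2 stood at -2.33 ± 0.170 before and -3.62 ± 0.174 after sorting, and Hcn3 at -4.64 ± 0.0498 and -3.94 ± 0.121 (SD, n = 4). Both directions were the same with the mean of these 8 markers as the reference. The markers themselves did not move together. Snap25 went from 605 ± 26.7 to 314 ± 14.4 FPKM, and Syt1 from 63.4 ± 3.24 to 107 ± 13.7 FPKM (SD, n = 4). With unsorted replicates 1 and 2 averaged into 1 sample, the log2-fold change was -1.20 for Hcn2 (adjusted p = 6.4e-05 by limma) and 0.82 for Hcn3 (adjusted p = 3.6e-04 by limma). Without MACS-sorted replicates 3 and 4, the log2-fold change was -1.17 for Hcn2 (adjusted p = 1.2e-04 by limma) and 0.84 for Hcn3 (adjusted p = 1.9e-04 by limma).

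**Figure D2:**
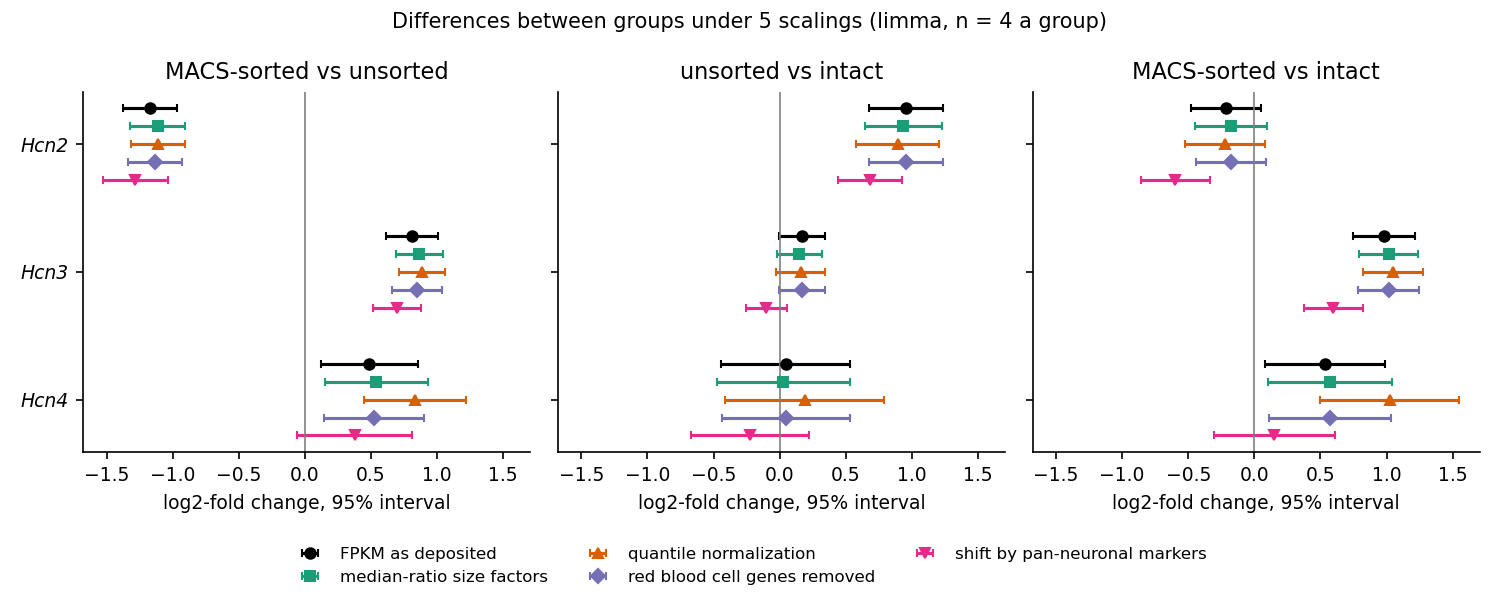
Log2-fold changes of Hcn2, Hcn3 and Hcn4 (horizontal axes, with 95% intervals from limma, 4 samples a group) in the 3 comparisons, for FPKM as deposited and for 4 other scalings of the samples shown by colour and symbol. For MACS-sorted against unsorted samples, Hcn2 lay between -1.28 and -1.11 and Hcn3 between 0.70 and 0.89 under all 5, while for unsorted against intact samples Hcn3 and Hcn4 changed sign under the pan-neuronal shift.

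The opposite moves of Hcn2 and Hcn3 changed the makeup of the family. A ratio of genes within a sample is not altered by multiplying all values of that sample by a factor, although quantile normalization can alter it. The ratio of Hcn2 to Hcn3 FPKM averaged 2.91 ± 0.338 for intact DRG, 5.02 ± 0.501 for unsorted DRG and 1.27 ± 0.196 after sorting (SD, n = 4). The ranges, from 2.46 to 3.22, from 4.62 to 5.74 and from 1.08 to 1.52, did not overlap. Of the FPKM of the 3 genes added together, Hcn2 held 69.2%, 79.8% and 50.9% on average in intact, unsorted and MACS-sorted samples, and Hcn3 held 24.0%, 16.0% and 40.5%. Hcn4 contributed 6.89 ± 1.10% to the sum in intact DRG, 4.24 ± 0.734% in unsorted DRG and 8.59 ± 0.934% after sorting (SD, n = 4). Between Hcn3 and Hcn4 no such shift was seen, since their ratio ranged from 2.81 to 5.03, from 3.06 to 4.90 and from 3.63 to 5.62 in the 3 groups, which overlapped. The ratio of Hcn2 to Hcn4 ranged from 8.77 to 12.4, from 15.2 to 22.7 and from 5.49 to 6.23, without overlap.

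**Figure D3:**
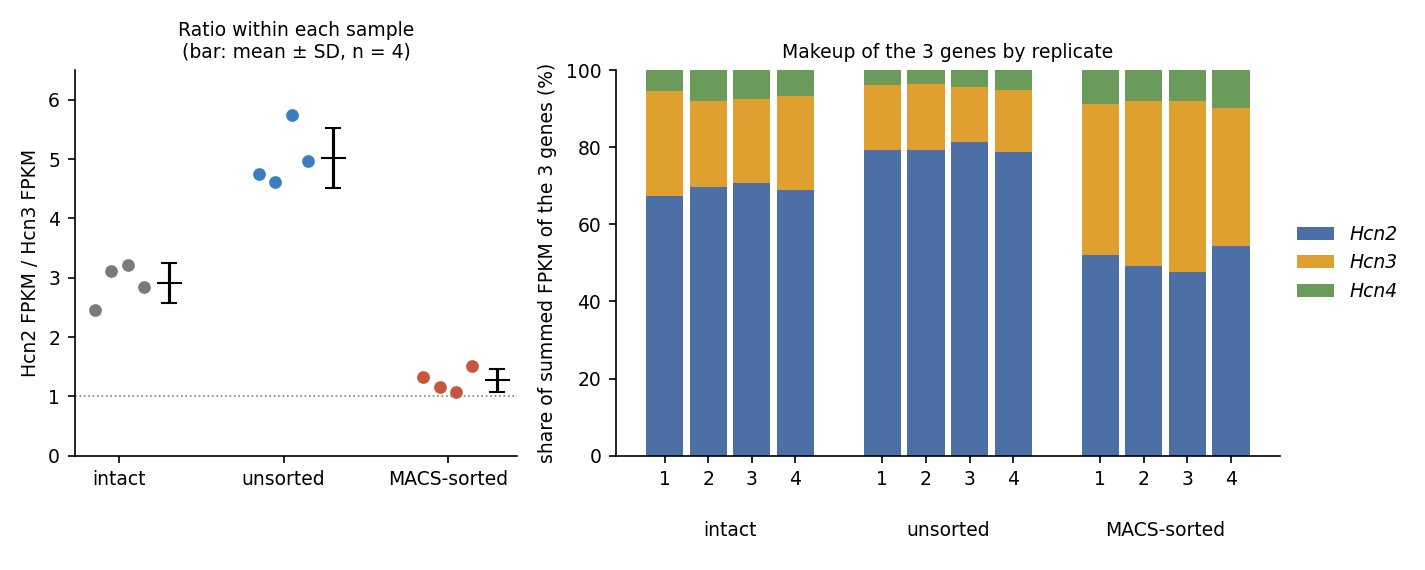
Left, the ratio of Hcn2 to Hcn3 FPKM in each sample (dots) with the mean ± SD of 4 samples (bars), and a dotted line at equal levels. Right, the share of each gene in the summed FPKM of the 3 genes (percent) for replicates 1 to 4 of each group. All ratios were above 1, with the unsorted samples highest, from 4.62 to 5.74, and the MACS-sorted samples lowest, from 1.08 to 1.52.

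The second comparison set dissociated, unsorted against intact ganglia, which differed in the dissociation and also in filtering and in the mice pooled per sample. Its unsorted samples were those of the first comparison, so the results for Hcn2 in both are not independent. Of the 3 genes, Hcn2 alone was called, and it was higher in the unsorted samples. In intact replicates 1 to 4 it was at 18.7, 23.8, 26.2 and 25.5 FPKM, and every intact value was below the lowest unsorted value of 42.3 FPKM. The group means differed by 1.94-fold, with a log2-fold change of 0.96 (standard error 0.13, 95% interval 0.67 to 1.24, adjusted p = 0.0026 by limma over 12392 genes). Of all genes tested, 4.29% were called higher and 2.76% lower in unsorted samples. Shifting the samples to equal pan-neuronal levels lowered the Hcn2 change to 0.68 (adjusted p = 0.0036 by limma), and the median change of all genes to -0.26 from 0.01. Without intact replicate 1, the sample with skeletal muscle RNA and the least Hcn2, the change was 0.85 (adjusted p = 3.0e-04 by limma).

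Hcn3 was at 7.61, 7.61, 8.15 and 8.95 FPKM in intact replicates 1 to 4, and the highest of these was above the lowest unsorted value of 8.52. Its log2-fold change was 0.17 (standard error 0.08, 95% interval -0.0031 to 0.34, adjusted p = 0.14 by limma). Hcn4 was at 1.51, 2.71, 2.77 and 2.49 FPKM in intact replicates 1 to 4, with replicate 1 again the lowest, and overlapped broadly with the unsorted samples. The estimated change was 0.05 on the log2 scale (standard error 0.22, 95% interval -0.44 to 0.54, adjusted p = 0.89 by limma), an interval wide on both sides of no change. The signs of both estimates depended on the scaling, at -0.10 for Hcn3 and -0.22 for Hcn4 under the pan-neuronal shift.

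Other genes also differed between unsorted and intact samples. Of 8 immediate early genes, 7 were called higher, and their summed expression ranged from 60.1 to 70.1 FPKM in intact and from 200.5 to 783 FPKM in unsorted samples. Of 8 large-diameter neuron markers, Nefh, Nefm, Calb1, Ntrk3 and Etv1 were higher and none was lower, and the summed expression of the 8 was 1214 to 1458 FPKM in intact samples. The lowest sum was that of intact replicate 1, the sample with skeletal muscle RNA. It held 441 FPKM of Pvalb, against 61.8 to 67.8 FPKM in the other intact samples. Of 6 endothelial markers, Pecam1, Flt1, Cldn5 and Cdh5 were higher, with a median log2-fold change of 1.07 over the list, and of 6 satellite glia markers Kcnj10 and Apoe were higher. All 6 skeletal muscle genes and 5 of 6 fibroblast markers were lower. The part of these genes in the Hcn2 result was not tested.

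MACS-sorted and intact ganglia were compared last. Both these groups also enter the comparisons above, so the values are given side by side and not as further support. Hcn3 was 1.99-fold higher after sorting, without overlap between the groups, at a log2-fold change of 0.98 (standard error 0.11, 95% interval 0.74 to 1.22, adjusted p = 1.1e-04 by limma over 12234 genes). In this comparison 7.54% of all genes tested were called higher and 10.7% lower. Hcn2 overlapped between the groups, with a log2-fold change of -0.21 (standard error 0.12, 95% interval -0.48 to 0.049, adjusted p = 0.19 by limma), which became -0.60 (adjusted p = 0.0027 by limma) under the pan-neuronal shift and -0.32 (adjusted p = 0.010 by limma) without intact replicate 1. The log2-fold change of Hcn4 was 0.54 (standard error 0.20, 95% interval 0.080 to 0.99, adjusted p = 0.068 by limma). Every MACS-sorted value of Hcn4 lay above every intact one, but the interval reached close to no change.

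Genes within 10000 bases of a channel gene were examined because reads of close neighbours can be assigned to the wrong gene. Polrmt, the mitochondrial RNA polymerase, lies on the other strand and runs towards Hcn2, with 16 bases between the 3′ ends of both genes, and its expression was between 3.15 and 5.26 FPKM in all samples, with a log2-fold change of 0.02 (adjusted p = 0.90 by limma) between MACS-sorted and unsorted samples. Bsg, which encodes the surface glycoprotein basigin and lies 4654 bases from Hcn2, was at 236 ± 12 in unsorted and 199 ± 10.3 FPKM in MACS-sorted samples (SD, n = 4), a log2-fold change of -0.24 that did not meet the fold criterion. The deposited locus of Bc1, a short noncoding RNA, spans Hcn2, and the gene was listed at 0 in all samples. Next to Hcn3, the kinase gene Clk2 was at 3.67 ± 0.240 in unsorted and 5.25 ± 1.59 FPKM in MACS-sorted samples (SD, n = 4; log2-fold change 0.46, adjusted p = 0.071 by limma). The deposited loci of Hcn3 and Pklr lie 180 bases apart, although their 3′ ends overlap in GENCODE M21. Pklr is the pyruvate kinase of red blood cells and liver. It was listed at 0 in all unsorted samples, and MACS-sorted replicates 1 to 4 had 1.11, 0.0253, 0.307 and 0.600 FPKM. Hcn3 was at 15.3, 17.3, 17.4 and 14.1 FPKM in the same replicates. Whether fragments of Pklr were assigned to Hcn3 was not tested. The kit marks the strand of the RNA, but whether the counting used it is not stated in the sources used here.

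Proteins that attach to HCN channels set where the channels go and how they respond to cAMP. Pex5l encodes TRIP8b, the accessory subunit that places HCN channels in the membrane and weakens their response to cAMP. It was at 35.7 ± 1.10 in intact, 43.8 ± 2.49 in unsorted and 38.0 ± 3.47 FPKM in MACS-sorted samples (SD, n = 4). Its log2-fold change was -0.21 between MACS-sorted and unsorted samples (adjusted p = 0.062 by limma) and 0.29 between unsorted and intact samples (adjusted p = 0.016 by limma), the latter under the fold criterion. Kcne2, a small membrane protein that can join HCN channels, did not exceed 0.120 FPKM in any sample and was listed at 0 in all MACS-sorted samples. Of the 7 partners, 4 passed the filter on low values for MACS-sorted against unsorted samples. The 1 that was called was Nedd4l, a ubiquitin ligase that removes ion channels from the membrane, which rose from 44.0 ± 0.888 to 73.4 ± 7.90 FPKM (SD, n = 4; log2-fold change 0.73, adjusted p = 8.5e-05 by limma). Against intact DRG its change was 0.96 (adjusted p = 2.2e-04 by limma).

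The KCNH potassium channels carry a domain related to the cAMP-binding domain of HCN channels, and their genes also differed in both directions. Between unsorted and MACS-sorted samples, Kcnh2, the gene of the ERG channel, fell from 27.1 ± 3.47 to 8.55 ± 1.37 FPKM (SD, n = 4; log2-fold change -1.66, adjusted p = 8.0e-06 by limma). Kcnh6, another ERG gene, rose from 9.15 ± 0.635 to 25.0 ± 2.06 FPKM (SD, n = 4; log2-fold change 1.44, adjusted p = 1.6e-06 by limma). Kcnh1 and Kcnh7 were lower by log2-fold changes of -0.55 and -0.62. Over the 14 related channels 6 were tested, 1 was called higher and 3 lower, and the median log2-fold change was -0.58 against -0.04 for all genes. The 6 Cng genes, which encode the cyclic nucleotide-gated channels of photoreceptors and olfactory neurons, were all too low to be tested. Kcnh2 was also higher in unsorted than in intact DRG, from 15.8 ± 3.91 FPKM (SD, n = 4; log2-fold change 0.81, adjusted p = 0.019 by limma).

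Adenylyl cyclases make cAMP. Of 10 adenylyl cyclase genes 8 were tested, and Adcy1, Adcy2, Adcy3 and Adcy9 were called lower in MACS-sorted than in unsorted samples, with log2-fold changes of -1.53, -1.07, -1.34 and -1.03. None was called higher, and the median log2-fold change was -1.05. Adcy1, the cyclase stimulated by calcium and calmodulin, went from 8.20 ± 0.397 to 2.78 ± 0.335 FPKM (SD, n = 4; adjusted p = 4.7e-06 by limma). Adcy5 had the highest level after sorting, at 17.2 ± 3.92 FPKM (SD, n = 4), with a log2-fold change of 0.35 (adjusted p = 0.10 by limma). Adcy3 and Adcy9 were higher in unsorted than in intact DRG, by 0.87 and 0.62, and Adcy1 and Adcy2 were lower in MACS-sorted samples than in intact DRG, by -1.46 and -0.69.

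Phosphodiesterases, which break cAMP down, were more mixed. Of 16 genes 15 were tested, and Pde1c, Pde4c, Pde10a and Pde11a were called higher and Pde4b lower in MACS-sorted than in unsorted samples, with a median log2-fold change of -0.11. Pde4c had the largest change of those called, from 1.89 ± 0.210 to 9.59 ± 4.85 FPKM (SD, n = 4; log2-fold change 2.14, adjusted p = 5.2e-04 by limma). It was also lower in unsorted than in intact DRG, where it was at 5.10 ± 0.938 FPKM (SD, n = 4; log2-fold change -1.37, adjusted p = 0.0014 by limma). Pde11a, which breaks down both cAMP and cyclic GMP, went from 11.3 ± 1.00 to 19.1 ± 3.33 FPKM (SD, n = 4; log2-fold change 0.74, adjusted p = 9.6e-04 by limma).

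Upstream of the cyclases, 8 of 11 receptor and G protein genes were tested. Gnal, the stimulatory G protein subunit of olfactory neurons and striatum, was called higher after sorting, from 87.3 ± 3.76 to 142 ± 27.9 FPKM (SD, n = 4; log2-fold change 0.68, adjusted p = 0.0029 by limma). Gnas, the general stimulatory subunit, had a higher level, at 889 ± 115 FPKM in MACS-sorted samples (SD, n = 4), and a log2-fold change of -0.13 (adjusted p = 0.36 by limma). The prostacyclin receptor gene Ptgir and the serotonin receptor gene Htr7 were called lower, by log2-fold changes of -0.70 and -3.17, and Htr7 went from 5.37 ± 0.265 to 0.534 ± 0.206 FPKM (SD, n = 4). Ptgir was higher in unsorted than in intact DRG, at a log2-fold change of 0.58 (adjusted p = 0.0031 by limma).

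Of the 8 genes for proteins that respond to cAMP, all were tested. Prkaca, a catalytic subunit of protein kinase A, traced the same path as Hcn2 at a smaller size, at 88.5 ± 1.00 in intact, 137 ± 9.34 in unsorted and 81.3 ± 7.44 FPKM in MACS-sorted samples (SD, n = 4). It was called higher in unsorted than in intact samples, at a log2-fold change of 0.62 (adjusted p = 0.0014 by limma), and lower in MACS-sorted than in unsorted samples, at -0.75 (adjusted p = 6.6e-05 by limma). Rapgef4, the cAMP sensor Epac2, was lower in MACS-sorted than in unsorted samples by -0.83 (adjusted p = 2.0e-05 by limma), and Prkar2b, a regulatory subunit of protein kinase A, was higher by 0.67 (adjusted p = 0.0016 by limma). The median log2-fold change of the effectors was -0.04, equal to that of all genes at this rounding. Across the 6 lists, 8 of the 49 genes tested for MACS-sorted against unsorted samples were called higher (16.3%) and 12 lower (24.5%), beside 8.15% and 12.5% of all genes. For MACS-sorted against intact samples 10.4% were called higher and 8.33% lower, close to the 7.54% and 10.7% of all genes. For unsorted against intact samples the 50 genes tested gave 5 higher and 1 lower, beside 4.29% and 2.76% of all genes.

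**Figure D4:**
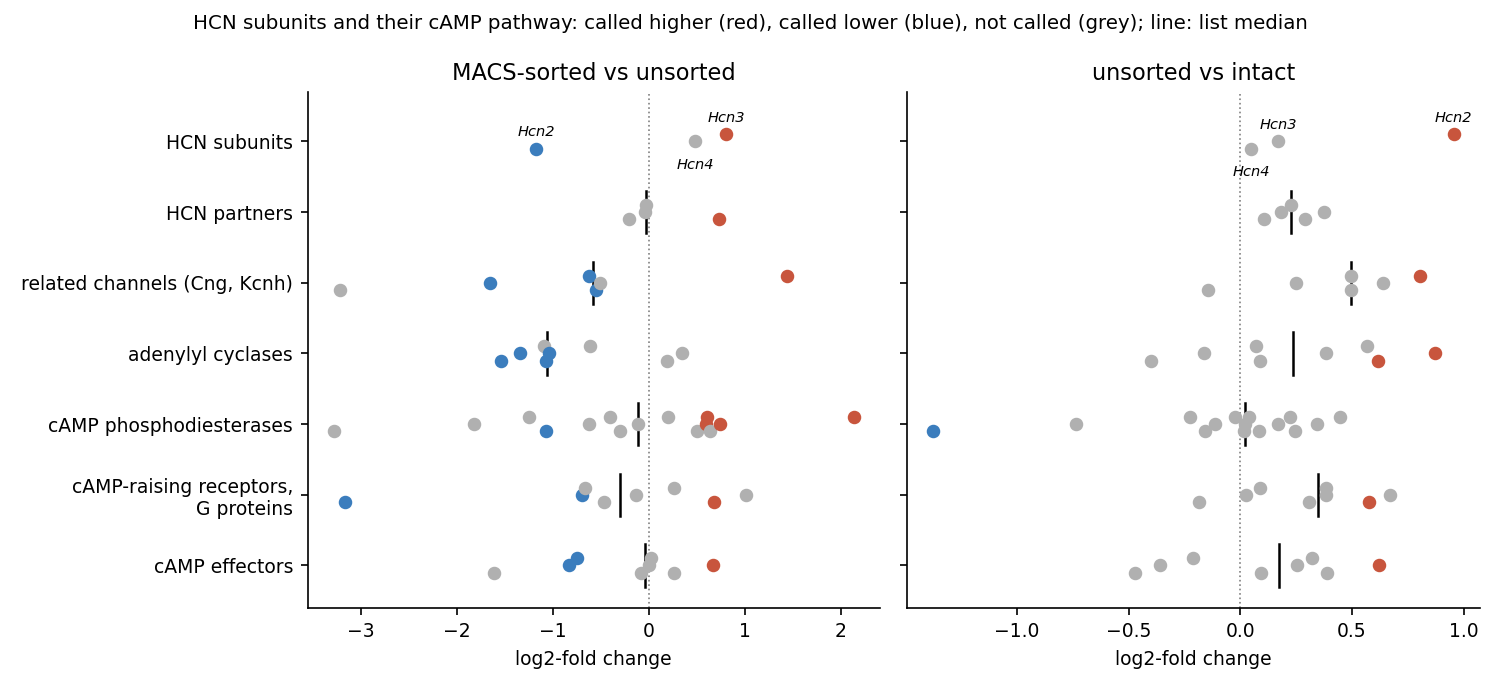
Log2-fold changes (horizontal axes) of the 3 HCN genes and of the tested genes of 6 lists of related genes, for MACS-sorted against unsorted samples (left) and unsorted against intact samples (right), with 4 samples a group. Dots are genes, red where called higher, blue where called lower and grey where not called, and black lines are list medians. The adenylyl cyclases sat lowest on the left, with a median of -1.05. Hcn2 changed places between the panels, from -1.17 on the left to 0.96 on the right. Both panels use the same unsorted samples, so the values of Hcn2 in them are not independent.

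Last, the genes most like each channel gene were sought by Pearson correlation of log2(FPKM + 0.1) over the 12 samples, among the 12283 genes that averaged 1 FPKM or more. The samples fall into 3 groups, so these values mostly record differences between the groups. The 5 genes most like Hcn2 were Entpd6, Pnkd, Git1, Rem2 and Paqr9, with r from 0.971 to 0.980. Rem2, a GTPase that restrains voltage-gated calcium channels, was at 5.15 ± 0.239, 8.69 ± 0.984 and 4.00 ± 0.357 FPKM in intact, unsorted and MACS-sorted samples (SD, n = 4), highest in the unsorted group as Hcn2 was. The 5 genes most like Hcn3 were Adrbk1, Bahd1, Neurl1a, Lrrc75b and Prmt2, with r from 0.986 to 0.989. Adrbk1, which encodes the G protein-coupled receptor kinase GRK2, was at 52.2 ± 1.78, 59.1 ± 3.42 and 103 ± 15.0 FPKM (SD, n = 4) in the same order. Hcn4 had looser matches in Hivep3, Foxo3, Trp53bp1, Plekha6 and Ubn1, with r from 0.899 to 0.923, and Hivep3, a zinc finger transcription factor gene, was at 2.65 ± 0.755, 2.38 ± 0.409 and 3.99 ± 0.207 FPKM (SD, n = 4).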

How the data were processed

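Polyadenylated RNA of 12 samples, 4 per group, was sequenced in 100-base reads. Per the submitters' notes, the authors used TopHat2 for alignment to mm10 and SAMtools for merging lanes, and deposited FPKM values per gene from Cufflinks 2.1.1. The annotation release and the strand setting are not given in the sources used here. All 12 columns were used as deposited. FPKM are not counts, so limma 3.58.1 (R 4.3.3) was fitted to log2(FPKM + 0.1), with a trend of the prior variance on intensity, in place of the CuffDiff test of the study. This scale understates changes of low genes. Each fit used the 8 samples compared, genes averaging 1 FPKM or more and Benjamini-Hochberg adjustment over all of them, with two-sided tests. A call needed an adjusted p under 0.05, group means apart by more than 0.5 on the log2 scale and more than 5 FPKM on average in whichever group was higher, which are the study's criteria. The procedure was tested on simulated data.

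The depth is not part of the deposited values and was estimated from the steps between the smallest values above 0. The replicate numbers did not pair the samples, since same-numbered samples correlated between -0.16 and 0.071 in their deviations from the group means. Sequences and gene models came from GENCODE M21.

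The 3 genes and all gene lists were chosen with earlier results of these data known. The text names the called genes of each pathway list, or its gene with the highest level where none was called, always Pex5l and Kcne2, the neighbours within 10000 bases and the 5 genes most correlated with each channel gene. Further list genes are named beside some results, picked with their values in view. The alternatives covered pseudocounts, filters, scalings, the samples in the fit, the trend, a block for the replicate number, calling criteria and leaving out samples. Some genes are not reported on here.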

Additional observations from a re-analysis of the deposited data

Results flagged for a closer look

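Among 39 sets of 4 values, from the 3 channel genes, their ratios, Pex5l, Kcne2 and the neighbouring genes, 3 had a sample far from the other 3 by Dixon's criterion. For independent, normally spread values chance gives about 1 in 20. That rate does not hold for these sets as a whole. Sets listed at 0 throughout could not be flagged, and the ratios reuse the values of the channel genes. Hcn2 in unsorted replicate 3 was at 54.2 FPKM, against 42.3 to 43.1 FPKM in the other unsorted samples, with a ratio of gap to range of 0.929. Without that sample, the log2-fold change of Hcn2 was -1.09 for MACS-sorted against unsorted samples (adjusted p = 1.7e-05 by limma) and 0.87 for unsorted against intact samples (adjusted p = 0.0080 by limma). Pex5l in MACS-sorted replicate 1 was at 32.8 FPKM, where the other sorted samples had 39.4 to 40.3 FPKM, with a ratio of 0.881. Kcne2 in unsorted replicate 4 was at 0.0416 FPKM, while the other unsorted samples were listed at 0. With the other values at 0 the criterion is met whatever the fourth value is, so this set says nothing beside the chance rate.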

How the results depend on the processing

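Of 180 alternative fits of the 3 channel genes, 162 kept the direction and the side of the 0.05 threshold of the adjusted p. Hcn2 and Hcn3 kept both in every alternative for MACS-sorted against unsorted samples, from -1.28 to -1.09 and from 0.70 to 0.89, as did Hcn2 for unsorted against intact (0.68 to 1.01) and Hcn3 for MACS-sorted against intact samples (0.60 to 1.05). Hcn4 did not. For MACS-sorted against unsorted samples its adjusted p passed 0.05 with no filter (change 0.49, adjusted p = 0.050), with all 12 samples in one fit (0.49, 0.064), with the pan-neuronal shift (0.38, 0.14), with unsorted replicates 1 and 2 averaged (0.40, 0.095) and without MACS-sorted replicates 3 and 4 (0.45, 0.099). Leaving out 1 sample gave 0.38 to 0.58, and the adjusted p passed 0.05 without unsorted replicate 1 or 2 or MACS-sorted replicate 1 or 4. For unsorted against intact samples, the pan-neuronal shift reversed Hcn3 to -0.10 and Hcn4 to -0.22, and leaving out 1 sample moved Hcn4 from -0.14 to 0.15, negative without intact replicate 1 (-0.14), unsorted replicate 3 (-0.05) or unsorted replicate 4 (-0.02). For MACS-sorted against intact samples, Hcn2 passed the threshold with the pan-neuronal shift (-0.60) and without intact replicate 1 (range -0.32 to -0.16), and Hcn4 with quantile normalization (1.02) and with all 12 samples in one fit (0.54). The causes were not tested. A filter at 5 FPKM gave no value for Hcn4.

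Over all genes, 981 were called higher and 1505 lower in MACS-sorted than in unsorted samples, 1387 and 1281 with quantile normalization and 648 and 1815 with the pan-neuronal shift. For unsorted against intact these were 531 and 342, 420 and 410, and 109 and 1431 (1540 in all). For MACS-sorted against intact they were 922 and 1313, 1249 and 1179, and 225 and 3325 (3550 in all). The median change of all genes moved from -0.04 to -0.15, 0.01 to -0.26 and -0.04 to -0.42 with the pan-neuronal shift, and to 0.10 and 0.12 with quantile normalization in the comparisons with MACS-sorted samples. A log2 ratio beyond 1 left 1139, 165 and 1011 calls in the 3 comparisons. It ended the calls of Hcn3 in both comparisons with MACS-sorted samples (0.81 and 0.98) and of Hcn2 for unsorted against intact samples (0.96), and left that of Hcn2 for MACS-sorted against unsorted samples. For the latter comparison, quantile normalization raised Hcn4 to 0.83 (adjusted p = 0.0026). For all genes, a limit of 1 FPKM gave 1349 for unsorted against intact. Leaving out 1 sample gave 579 to 885 there, the lowest without unsorted replicate 3. With a replicate block there were 2507, 899 and 2229 calls, and Hcn2 was at -1.17 (adjusted p = 1.9e-04), Hcn3 at 0.81 (3.3e-04) and Hcn4 at 0.49 (0.048) for MACS-sorted against unsorted samples. The block changed no call of these genes. The low level of Hcn4 and 4 samples a group limit what can be said of it.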
